A study of Mus musculus with 4 samples.

Results

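The cytosolic ribosomal protein genes encode the proteins that, with ribosomal RNA, build the small (Rps) and large (Rpl) subunits of the ribosome, and the acidic proteins of the stalk (Rplp) that recruits elongation factors. The genes were chosen by name, as all genes whose symbol is Rpl, Rps or Rplp followed by a number and at most a short suffix, which leaves out names ending in -ps and the S6 kinases. This gave 88 of the 55487 genes in the tables, 50 of the large subunit, 35 of the small subunit and 3 of the stalk. Of the 88, 82 were protein-coding in GENCODE M21 and 6 were of pseudogene type, namely Rps3a2, Rps3a3, Rps4l, Rpl6l, Rpl32l and Rps12l1. Rpsa, Fau and Rpl36al also encode ribosomal proteins but have other kinds of names, and they are described separately.

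RNA was sequenced from 4 libraries labelled as regulatory T cells of mouse skin, 2 from mice without UVB and 2 from mice exposed to narrow-band ultraviolet B (UVB). In all 4, skin inflammation had been set off by daily doses of 60 mg of a cream with 5% imiquimod on the shaved back, and the UVB mice were irradiated 3 times, on alternate days. Strain, age, the way cells were sorted and whether the libraries came from separate animals are not stated in the sources used, so a p-value here reflects no more than how these libraries vary, and that variation may be technical. The libraries are numbered 1 and 2 within each group, and what the number stands for is not stated. Levels are in TPM, a unit scaled to gene length that sums to 1000000 in every library.

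The libraries differed along the replicate number in ways that touch every result below. Foxp3, which defines regulatory T cells, was 0 TPM (non-UVB) and 3.49 TPM (UVB) in replicate 1, and 19.4 TPM (non-UVB) and 19.3 TPM (UVB) in replicate 2. The defining gene of the label was thus not detected in non-UVB replicate 1. In the other 3 libraries it lay far below the median of 13 regulatory and CD4 T cell markers. That median was 490 TPM in UVB replicate 1, and 319 TPM (non-UVB) and 462 TPM (UVB) in replicate 2. Gamma-delta T cell markers (9 genes) reached 9609 TPM (non-UVB) and 8809 TPM (UVB) in replicate 1 but 177 TPM (non-UVB) and 307 TPM (UVB) in replicate 2. In the same order, keratinocyte markers (14 genes) summed to 380 and 481 TPM against 4611 and 4827 TPM, and the mitochondrial genome gave 0.857% and 0.487% against 5.73% and 6.42%. Macrophage and dendritic cell markers (20 genes) gave 13747 and 6526 TPM in the non-UVB pair (replicates 1 and 2) and 23271 and 14519 TPM in the UVB pair. These markers differed with UVB as well. Of the 18 tested, 16 had higher means with UVB, beside 61.0% of all genes tested. UVB was higher within both numbers for 13, beside 34.0%. Their part in the UVB differences below was not tested. The sum of regulatory and CD4 T cell markers (13 genes) ranged less, from 6797 TPM in UVB replicate 2 to 9819 TPM in non-UVB replicate 2. Gene by gene they also split by number. Of the 13, 7 were higher and 2 lower in both libraries numbered 2, beside 22.5% and 18.5% of all genes tested. The haemoglobin share was 11.8% in non-UVB replicate 1, and elsewhere it ran from 0.153% to 0.441%. In RNA from mixed cells, fewer cells of a type and less RNA per cell cannot be told apart.

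Cells hold ribosomal proteins in near equal numbers, and the genes are among the most strongly transcribed of any growing cell. In T cells, antigen receptor and growth factor signals raise ribosome production on activation. Most ribosomal protein mRNAs begin with a run of C and T bases, the 5′ terminal oligopyrimidine (TOP) motif, through which the kinase mTOR and the RNA-binding protein LARP1 set their translation. RNA levels as measured here do not report that translation.

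The starts of 6 of these genes are shown to show the run where it is present and absent, in genes whose levels are compared below. They were picked after the levels were seen. Sequences are those of RefSeq on GRCm38.p6, from 70 bases before the annotated start to 30 bases after it. Capitals mark a C followed by at least 4 bases that are each C or T, beginning within 5 bases of the start. Rps6 encodes the S6 kinase substrate, at chr4:86857338-86857437 on the minus strand. Rps10 is at chr17:27635215-27635314 on the minus strand, and Rps27 at chr3:90213619-90213718 on the minus strand. Rps27l is at chr9:66946016-66946115, Rpl22l1 at chr3:28805438-28805537 and Rpl22 at chr4:152325656-152325755, all on the plus strand.
Rps6: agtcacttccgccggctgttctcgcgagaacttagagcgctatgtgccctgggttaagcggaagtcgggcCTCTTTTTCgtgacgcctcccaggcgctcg
Rps10: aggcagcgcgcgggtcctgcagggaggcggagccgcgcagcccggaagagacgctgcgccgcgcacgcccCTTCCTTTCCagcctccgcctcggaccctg
Rps27: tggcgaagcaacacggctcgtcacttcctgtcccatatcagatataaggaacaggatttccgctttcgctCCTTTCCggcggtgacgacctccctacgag
Rps27l: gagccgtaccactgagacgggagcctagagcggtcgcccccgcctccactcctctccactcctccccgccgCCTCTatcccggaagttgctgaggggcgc
Rpl22l1: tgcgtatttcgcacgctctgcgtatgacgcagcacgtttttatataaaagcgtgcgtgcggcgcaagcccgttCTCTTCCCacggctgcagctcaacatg
Rpl22: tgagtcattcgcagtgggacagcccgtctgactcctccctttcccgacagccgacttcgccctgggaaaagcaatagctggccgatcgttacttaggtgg

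Of the 88 genes, 63 had at least 1 entry in the RefSeq table of 300-base promoters. The pyrimidine run was found in 30 of them, or 47.6%, against 21.2% of all 27025 genes in that table. The letters CCGGAAG, the core bound by ETS factors such as GABP, occurred on either strand in 25 of the 63 (39.7%) and in 9.93% of all genes. The letters AAGATGG, part of the site of YY1, occurred in 10 (15.9%) and in 7.28% of all genes. The last of these can overlap the start codon, and a match is a description of the letters only. The annotated starts are not mapped in these cells, so a missing run, as in Rpl22, says only that the run is not at that annotated position. The genes lay on 19 chromosomes, 4 of them on X (Rps4x, Rpl10, Rpl36a and Rpl39). Small nucleolar RNA genes, which guide modification of ribosomal RNA, lay inside 29 of the 88 genes on the same strand.

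Ribosomal protein RNA separated the libraries by replicate number, and the UVB and non-UVB values interleaved. The 88 genes took 2.67% and 5.17% of TPM in non-UVB replicates 1 and 2 and 3.29% and 5.03% in UVB replicates 1 and 2. Both libraries numbered 2 were above both numbered 1. The mean was 3.92% ± 1.77 (SD, n = 2) without UVB and 4.16% ± 1.23 (SD, n = 2) with it, a ratio of 1.06. Replicate 2 held 1.94 times the share of replicate 1 without UVB and 1.53 times with UVB. With haemoglobin and mitochondrially encoded genes taken out of the total, the shares were 3.06%, 5.51%, 3.31% and 5.39% in the same order, and the order of the libraries by number was kept. The number also separated the gamma-delta and keratinocyte markers, and their part in the ribosomal protein level was not tested.

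**Figure D1:**
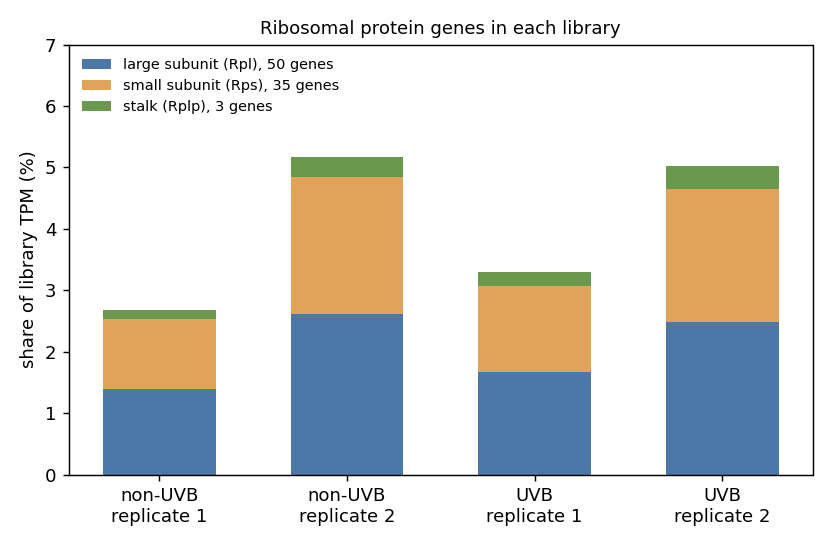
Share of library TPM (%) taken by ribosomal protein genes in each of the 4 libraries, stacked by large subunit, small subunit and stalk. The libraries numbered 2 reach 5.17% and 5.03%, above 2.67% and 3.29% in those numbered 1, and the proportions of the subunits look alike in all 4.

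The balance of the subunits stayed nearly the same while the total differed. Small-subunit genes made up 43.1% and 43.0% of the ribosomal protein total in non-UVB replicates 1 and 2 and 42.8% and 43.1% in UVB replicates 1 and 2. The ratio of large-subunit and stalk genes to small-subunit genes was 1.32 and 1.33 without UVB and 1.34 and 1.32 with it. The stalk genes had 5.01% and 6.404% of the total without UVB and 6.64% and 7.36% with it, lowest in non-UVB replicate 1. The 10 most abundant members held between 25.9% and 29.6% of the total.

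Of the 88 genes, 84 passed the filter of at least 1 TPM in at least 2 libraries, and the other 4 were listed at 0 in every library. Those 4 were Rpl3l, which is known for expression in striated muscle, Rpl10l and Rpl39l, known from the testis, and the pseudogene Rps12l1. Among the 84, the most abundant was Rpl32, a large-subunit protein, with 1053 and 2669 TPM in the non-UVB pair (replicates 1 and 2 in that order, here and below) and 1528 and 1903 TPM in the UVB pair. The non-UVB values of Rpl32 enclosed its UVB values, so the groups overlapped. Rps14 had 678 and 1456 TPM against 1080 and 1707 TPM, and Rps19, a gene mutated in human Diamond-Blackfan anaemia, had 891 and 1268 TPM against 769 and 1523 TPM. Rpl13 (793 and 1346 TPM against 890 and 1228 TPM) and Rpl38 (468 and 1679 TPM against 666 and 1327 TPM) came next among the subunit proteins. Rps29 had 629 and 1393 TPM against 626 and 1110 TPM, and Rps9 had 576 and 1225 TPM against 808 and 1078 TPM. All 7 were lower in both libraries numbered 1 than in either numbered 2.

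The stalk genes did not all follow the replicate number. Rplp0, the scaffold of the stalk, measured 693 and 1233 TPM in the non-UVB pair and 1162 and 998 TPM in the UVB pair. Rplp1 had 416 and 1249 TPM against 506 and 1698 TPM, and Rplp2 had 230 and 830 TPM against 518 and 1005 TPM. Rplp1 and Rplp2 were higher in both libraries numbered 2, whereas Rplp0 in UVB replicate 1 lay above UVB replicate 2.

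**Figure D2:**
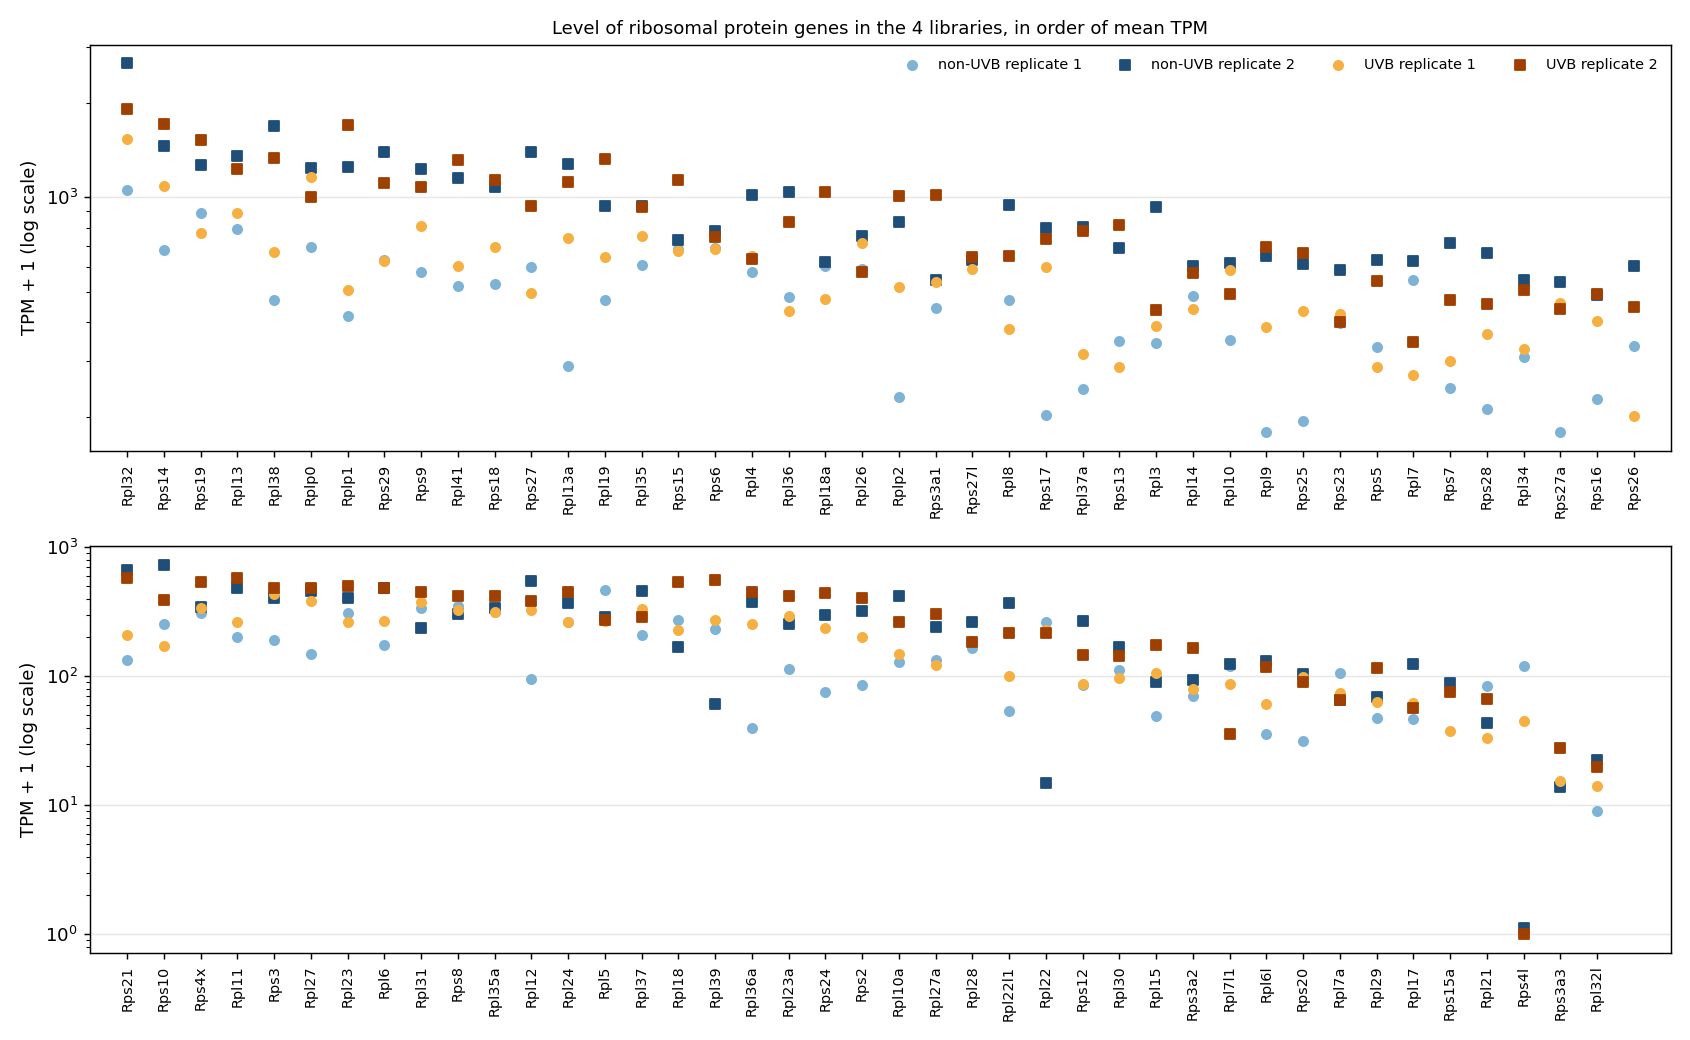
TPM + 1 on a log scale for 83 of the 84 ribosomal protein genes above the filter (1 is not shown), in order of mean TPM, with circles for libraries numbered 1 and squares for those numbered 2, and blue for non-UVB and orange to brown for UVB. Squares lie above circles for most genes. Rpl39, Rpl22 and Rpl36a each have 1 value far below the rest, and both libraries numbered 2 of Rps4l lie near the bottom.

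Counted gene by gene, 57 of the 84 were higher in both libraries numbered 2 than in both numbered 1, against 22.5% of all 10286 genes tested, and 3 were lower in both, against 18.5%. The median log2(TPM + 1) difference of replicate 2 from replicate 1 was 0.995 without UVB and 0.66 with UVB over the 84 genes, beside 0.15 and 0.03 over all genes tested. Without UVB, 73 of the 84 were higher in replicate 2, and with UVB 70 were. The 3 genes that went the other way were Rpl22, Rpl7a and Rps4l. The count was 57 with haemoglobin and mitochondrially encoded genes taken out (22.6% of all genes), 58 after median scaling (24.9%) and 53 after quantile normalization (19.3%), all settings chosen after seeing the data. The split by number is a description of these libraries, and no test was made of it.

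**Figure D3:**
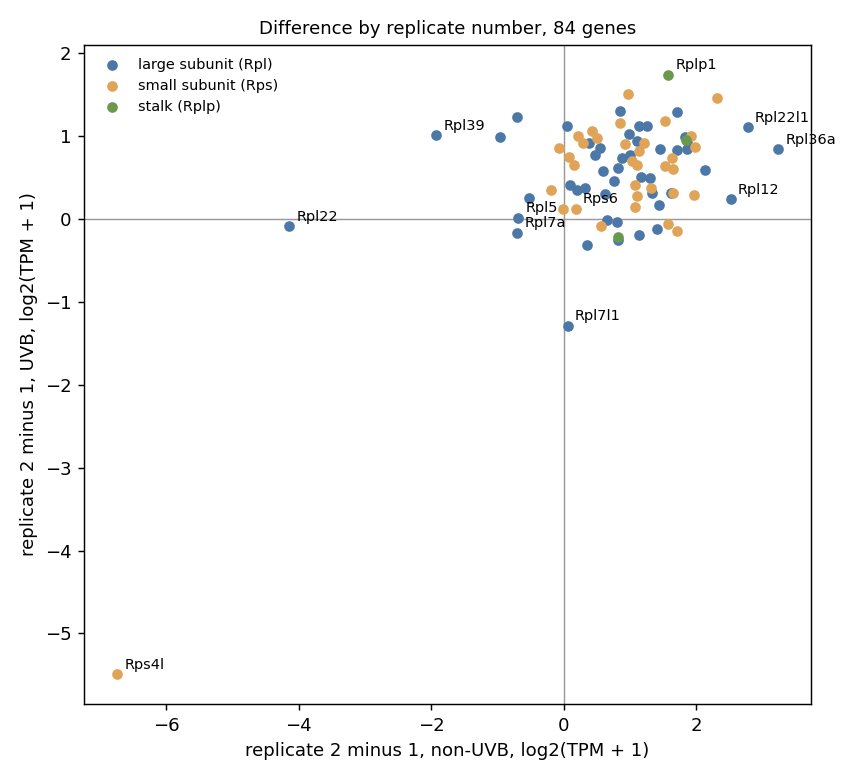
Difference of replicate 2 from replicate 1 in log2(TPM + 1) for each of 84 ribosomal protein genes, without UVB on the horizontal axis and with UVB on the vertical axis, coloured by subunit. Most genes lie in the upper right, with 73 above 0 without UVB and 70 with it, and Rpl22, Rpl39 and Rps4l lie far to the left.

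A few genes were nearly level across the 4 libraries. Rps27l, a small-subunit paralogue that p53 induces in human cells, measured 635 and 631 TPM in the non-UVB pair and 590 and 641 TPM in the UVB pair, a spread of 1.09-fold between its lowest and highest library. Rps6, which S6 kinase phosphorylates downstream of mTOR, had 686 and 779 TPM against 684 and 748 TPM, a spread of 1.14-fold. These were the 2 narrowest spreads of the 84, for which the median was 2.52-fold. Of the 84, 23 stayed within 2-fold, 54 within 3-fold and 76 within 5-fold. At mean levels of 50 TPM or more, 28.4% of the 81 ribosomal protein genes and 22.3% of 3052 other genes stayed within 2-fold. None of those 81 fell under 1 TPM in any library, whereas 479 of the 3052 others (15.7%) did. Rps4l, which averaged 40.9 TPM and so lay outside the 81, fell under 1 TPM in both libraries numbered 2. The 2 sets shared the cut at 50 TPM but were not otherwise matched for level.

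The levels of the 84 genes relative to each other were also described by correlation across genes. Pearson's r of log2(TPM + 1) lay between 0.686 (non-UVB replicates 1 and 2) and 0.901 (non-UVB and UVB replicate 2) for the 6 pairs of libraries. Over all 10286 genes tested the same 2 pairs had 0.463 and 0.572. These are values across genes, which are not independent replicates, and they share gene length and sequence. The median read depth per base of the 84 genes, from the deposited coverage, was 210 and 328 in non-UVB replicates 1 and 2 and 333 and 316 in UVB replicates 1 and 2, beside 19.4, 11.7, 32.6 and 18.0 over all genes tested.

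No ribosomal protein gene passed the test for UVB. With limma and Benjamini-Hochberg adjustment over 10286 genes, 0 of 84 had an adjusted p under 0.05, as did 0.0% of all genes in either direction. At an unadjusted p under 0.05, 0 of 84 were higher and 0 lower, against 9.97% of all genes higher and 1.37% lower. The smallest adjusted p of a ribosomal protein gene was 0.502. The mean was higher with UVB for 55 of the 84, against 61.0% of all genes, and lower for 29, against 39.0%. The median difference was 0.16 log2 over the 84 genes and 0.26 log2 over all genes, so relative to all genes it was -0.10. With 2 libraries in each group, a p that misses the threshold does not show that the genes were alike.

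The difference with UVB had no common direction. Within replicate 1 its median over the 84 genes was 0.23 log2, with 56 higher, and within replicate 2 it was -0.07 log2, with 39 higher. UVB was above non-UVB within both numbers for 26 genes, against 34.0% of all genes, and below within both for 15, against 17.7%. The median size of the difference, whatever its sign, was 0.40 log2 within replicate 1 and 0.32 within replicate 2. For all genes tested it was 1.02 and 1.16. For other genes averaging 50 TPM or more, not otherwise matched for level, it was 0.67 and 0.78. Across the 84 genes the differences within the 2 numbers had a Pearson r of 0.02. Median scaling of the libraries moved the median of all genes from 0.26 to -0.27 log2 and that of the ribosomal protein genes to -0.48, with 15 of 84 means higher, so the direction of the small median rests on the scaling. Omitting non-UVB replicate 1 made it -0.28, and omitting UVB replicate 2 made it -0.11.

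For 10 genes the 2 groups stood clear of each other. UVB was higher for 6, against 23.2% of all genes, and lower for 4, against 9.71%. The shares of all genes depend on the filter. With 1 TPM required in all 4 libraries, a setting chosen after seeing the data, they were 16.2% and 13.8%. The counts of 6 and 4 were the same there, among 83 genes of the family. Rpl7, a large-subunit protein, measured 543 and 627 TPM in the non-UVB pair and 270 and 344 TPM in the UVB pair. Both UVB values were below both non-UVB values, and the difference was -0.94 ± 0.36 log2 (SE, n = 2 per group), the one with the smallest unadjusted limma p, 0.061. Its limma adjusted p was 0.502, and it lay between -1.11 and -0.76 when each library was left out in turn. Rpl7l1, a nucleolar relative of Rpl7, had 119 and 125 TPM against 86.0 and 34.6 TPM, or -1.14 ± 0.69 log2. Rps15a had 75.4 and 87.9 TPM against 36.5 and 74.3 TPM, and Rpl5 had 462 and 287 TPM against 269 and 272 TPM. For Rps15a and Rpl5 the gap between the groups was narrow, non-UVB replicate 1 and UVB replicate 2 of Rps15a being close to each other. Rps10 (251 and 729 TPM against 170 and 386 TPM) was lower within each number but overlapped between groups, with a difference of -0.74 ± 0.77 that was 0.03 without non-UVB replicate 2.

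On the higher side, Rpl39, an X-linked protein at the peptide exit tunnel, measured 232 and 60.2 TPM in the non-UVB pair and 274 and 555 TPM in the UVB pair, or 1.71 ± 0.87 log2. The difference was 0.24 within replicate 1 and 3.18 within replicate 2, and it fell to 0.75 without non-UVB replicate 2. Rpl39-ps, a processed copy of it, had 38.5 and 5.03 TPM against 48.9 and 99.4 TPM, low in the same library. Rpl23a, which lies at the tunnel exit, had 112 and 254 TPM against 294 and 417 TPM, or 1.05 ± 0.59 log2. Rpl15 had 48.0 and 89.1 TPM against 105 and 175 TPM, and Rps3, which also takes part in DNA repair in human cells, had 190 and 402 TPM against 431 and 478 TPM. With their processed copies added, Rpl15 and Rps15a overlapped between the groups, as described below. Rpl31 had 336 and 234 TPM against 376 and 451 TPM, and it turned to -0.09 log2 under median scaling. The last of the 6, the pseudogene Rps3a3, lies outside the rule for named genes and was low, at 13.7 and 12.9 TPM against 14.5 and 27.0 TPM. The limma adjusted p was between 0.711 and 0.924 for the 5 genes before it, so none passed the test. On this side too some gaps between the groups were narrow. The highest non-UVB and lowest UVB values were 402 and 431 TPM for Rps3, 336 and 376 TPM for Rpl31, and 13.7 and 14.5 TPM for Rps3a3.

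**Figure D4:**
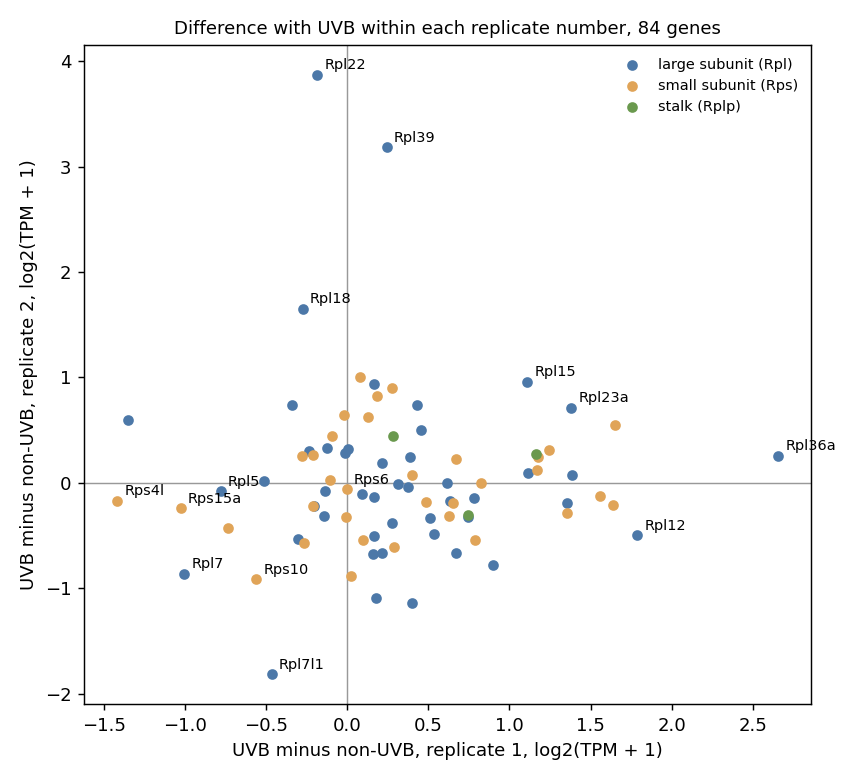
UVB minus non-UVB in log2(TPM + 1) for each of 84 ribosomal protein genes, within replicate 1 on the horizontal axis and within replicate 2 on the vertical axis, coloured by subunit. The points form no line, with a Pearson r of 0.02, Rpl7 and Rps10 lie below 0 on both axes, and Rpl22 and Rpl39 stand out on the vertical axis alone.

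Free Rpl5, Rpl11 and Rpl23 bind MDM2 and stabilise p53 when ribosome assembly fails. Rpl11 measured 201 and 485 TPM in the non-UVB pair and 263 and 576 TPM in the UVB pair, and Rpl23 had 307 and 401 TPM against 261 and 496 TPM. Both overlapped between the groups, with differences of 0.32 ± 0.70 and 0.04 ± 0.49 log2, and Rpl5, given above, stood at -0.43 ± 0.43. Mdm2 itself had 49.1 and 3.41 TPM against 41.9 and 72.6 TPM. Trp53, which encodes p53, had 121 and 94.5 TPM against 160 and 78.8 TPM. The p53 target Cdkn1a had 529 and 169 TPM against 379 and 644 TPM. Of the 4 genes of that link that were tested, all 4 had higher means with UVB, beside 61.0% of all genes, and 0 passed. Only 1 was higher within replicate 1, 3 were within replicate 2 and 0 were within both. Their median, 0.40 log2, was -0.10 without non-UVB replicate 2 and -0.24 after median scaling. Rps27a, made as a fusion with ubiquitin, had 178 and 535 TPM against 457.8 and 439 TPM, low in non-UVB replicate 1 alone.

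Some paralogues differed widely between libraries, and others were level. Rpl22 had 261 and 13.8 TPM in the non-UVB pair and 229 and 216 TPM in the UVB pair, and its paralogue Rpl22l1, which can take its place in the ribosome, had 52.9 and 371 TPM and 99.4 and 216 TPM. Rpl22 is known in mice to repress Rpl22l1. Non-UVB replicate 2 had the lowest Rpl22 and the highest Rpl22l1 of the 4. Rpl22l1 made up 16.9% and 96.4% of the pair without UVB and 30.3% and 50.0% with it. The sum of the pair was 314 and 384 TPM in the non-UVB pair and 328 and 431 TPM in the UVB pair. Neither gene passed the test, with differences of 1.84 ± 1.55 log2 for Rpl22 and 0.06 ± 1.16 for Rpl22l1. Rpl22 and the pair sums were singled out after their values were seen.

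Rps27 and Rps27l, which encode near-identical small-subunit proteins, had different patterns. Rps27 measured 597 and 1389 TPM in the non-UVB pair and 495 and 934 TPM in the UVB pair, and Rps27l, given above, was level, so its share of the pair was 51.6% and 31.2% without UVB and 54.4% and 40.7% with it. Rpl36a, on the X chromosome, had 39.1 and 377 TPM against 251 and 451 TPM, while Rpl36al, on an autosome and outside the name rule, had 474 and 263 TPM against 534 and 580 TPM. In non-UVB replicate 1, where Rpl36a was lowest, Rpl36al held 92.4% of their sum. That share leaves out the 4 processed copies named after Rpl36a, which had 335 and 337 TPM against 469 and 547 TPM. Reads can be assigned to the gene or to a copy, so the share is uncertain. Rps4l stood at 119 TPM (non-UVB) and 44.0 TPM (UVB) in replicate 1, and it was at 0.125 TPM in non-UVB replicate 2 and listed at 0 in UVB replicate 2. It was the 1 gene of the family over 50 TPM in a library and under 1 TPM in another, and it lies opposite Tmtc1, so that reads of the 2 genes cannot be told apart without strand. The X-linked Rps4x, whose name it extends, had 309 and 346 TPM against 339 and 535 TPM. Rps3a1 had 444 and 544 TPM against 538 and 1018 TPM, and its pseudogene Rps3a2 stayed at between 12.7% and 14.6% of their sum. Rpl6l held 16.6% and 21.3% of the sum with Rpl6 without UVB and 18.4% and 19.6% with UVB, and Rpl32l held between 0.76% and 0.98% of the sum with Rpl32.

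**Figure D5:**
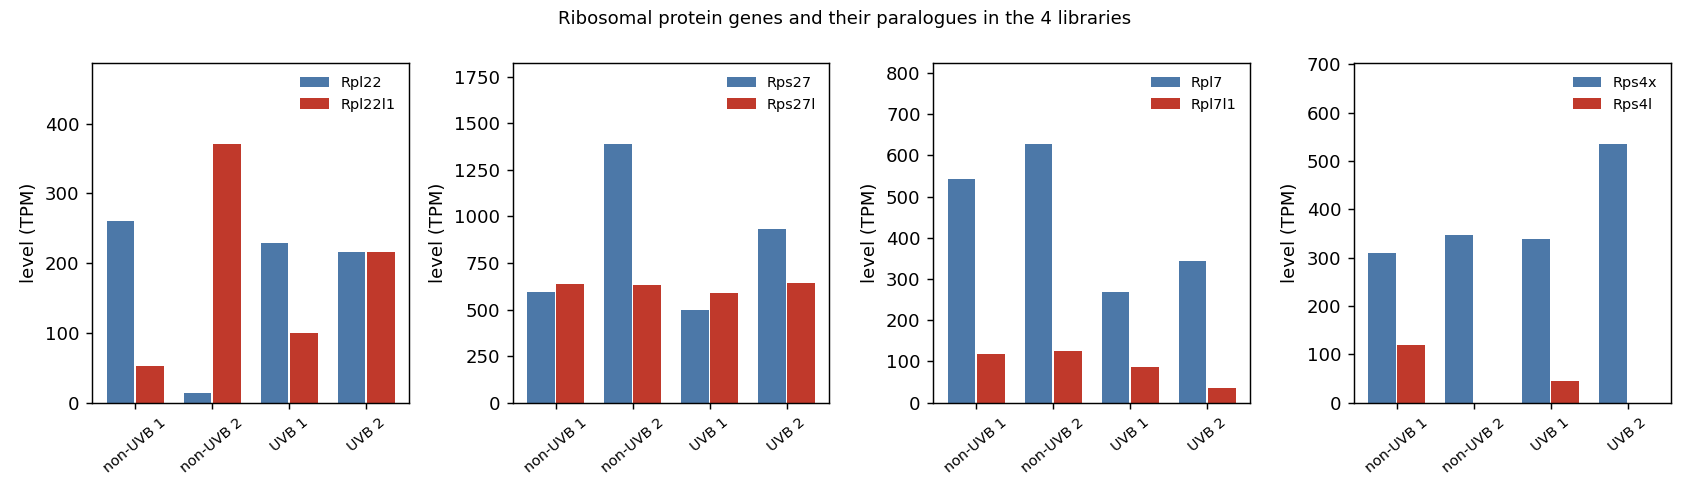
TPM of 4 ribosomal protein genes (blue) and of their paralogues (red) in the 4 libraries, 1 panel per pair. Rpl22 falls to 13.8 TPM in non-UVB replicate 2 where Rpl22l1 reaches 371 TPM, Rps27l is level, and Rps4l is seen in the libraries numbered 1.

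Ribosomal protein genes have many processed copies in the genome whose reads can be assigned to either locus. The tables hold 307 genes with a ribosomal protein name ending in -ps, of which 306 are named after 1 of 62 genes in the family. They summed to 22.1% and 21.02% of the family's total in non-UVB replicates 1 and 2 and to 20.3% and 19.9% in UVB replicates 1 and 2. Of 185 copies tested, 139 were higher in both libraries numbered 2 and 2 were lower, beside 22.5% and 18.5% of all genes. For 8 genes the named copies summed to more than the gene itself, namely Rpl7a, Rpl15, Rpl17, Rpl21, Rpl30, Rpl36a, Rps12 and Rps15a, and their levels are uncertain. Rpl17 averaged 71.8 TPM beside 566 TPM in its 11 copies, and Rpl15 averaged 104 TPM beside 298 TPM in its 6. The Rpl15 copies had 141 and 359 TPM in the non-UVB pair and 236 and 456 TPM in the UVB pair. Those of Rps15a had 63.3 and 118 TPM against 50.8 and 122 TPM. Adding the copies made the groups of both genes overlap. With the copies added to their genes, 60 of 84 were higher in both libraries numbered 2 (21.5% of all genes) and the median UVB difference was 0.15 log2. UVB was then higher for 6 and lower for 5 without overlap, beside 23.5% and 9.73% of all genes. Genes on the opposite strand overlap 24 of the 88 genes, and the labels do not give the strand of the reads.

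Of the ribosomal protein genes with other kinds of names, Fau, fused to a ubiquitin-like protein, measured 498 and 536 TPM in the non-UVB pair and 707 and 764 TPM in the UVB pair. Rpsa, of the small subunit, had 97.7 and 227 TPM against 221 and 369 TPM, or 0.94 ± 0.64 log2. Of the 4 genes tested in that list, 2 (Fau and Rpl36al) were higher with UVB without overlap, beside 23.2% of all genes. None of the 4 passed the test with limma.

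Other genes of protein synthesis were read from lists written for this purpose. Among genes with TOP mRNAs that do not encode ribosomal proteins, 16 of 19 had higher means with UVB, beside 61.0% of all genes. Their median was 0.57 log2 against 0.26 over all genes, and 0 passed. The median was 0.06 without non-UVB replicate 1 and -0.07 after median scaling. Gas5, a host of small nucleolar RNAs, had 308 and 577 TPM against 173 and 442 TPM, and Tpt1 had 738 and 1115 TPM against 977 and 1214 TPM, and Eef1a1, which brings aminoacyl-tRNA to the ribosome, had 696 and 1027 TPM against 789 and 1255 TPM. Hnrnpa1 had 31.7 and 38.7 TPM against 117 and 110 TPM, or 1.67 ± 0.57 log2. Eif3e, an initiation factor subunit, had 184 and 156 TPM against 100 and 61.0 TPM, or -1.10 ± 0.53 log2. Of these 19 genes, 9 were higher in both libraries numbered 2 and 1 was lower, beside 22.5% and 18.5% of all genes.

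Elongation and termination factors had higher means for 8 of 9, beside 61.0% of all genes, and a median of 1.01 log2. The median was 0.37 after median scaling, 0.56 with 1 TPM required in all 4 libraries and 0.66 without UVB replicate 2. Eif5a, which relieves stalling ribosomes, measured 2066 and 1595 TPM in the non-UVB pair and 2687 and 2652 TPM in the UVB pair, or 0.56 ± 0.28 log2. Etf1, the release factor, read 0.0996 and 5.01 TPM (non-UVB) and 93.0 and 69.9 TPM (UVB), and Abce1, which splits ribosomes for reuse, had 0.070 and 0.886 TPM against 14.2 and 23.6 TPM. Initiation factors had higher means for 23 of 35, beside 61.0% of all genes, and a median of 0.35, which median scaling made -0.29. It was 0.07 with 1 TPM required in all 4 libraries. With 1 library left out it lay between 0.15 (non-UVB replicate 2) and 0.61 (non-UVB replicate 1). Eif4a1, the helicase that unwinds mRNA, had 456 and 175 TPM against 761 and 654 TPM, Eif1 had 1107 and 1593 TPM against 1344 and 1342 TPM, and Eif1a read 0.075 and 0.483 TPM (non-UVB) and 105 and 34.1 TPM (UVB). None of the factors in these lists had a limma adjusted p under 0.05. Values near 0 in a group were also common in genes every cell needs. Of 84 mitochondrial ribosomal protein genes, 29 and 33 lay below 1 TPM in the non-UVB pair and 4 and 9 in the UVB pair, beside 4 and 5 in each pair of the 88 cytosolic ones.

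Ribosome biogenesis genes act in the nucleolus and on the assembling subunits. Of those tested, 54 of 84 had higher means with UVB, beside 61.0% of all genes. The median was 0.57 log2, against 0.26 over all genes. It was -0.01 after median scaling and 0.14 with 1 TPM required in all 4 libraries. With 1 library left out it lay between 0.23 (non-UVB replicate 2) and 1.13 (UVB replicate 2). Npm1, a nucleolar chaperone, measured 236 and 134 TPM in the non-UVB pair and 539 and 370 TPM in the UVB pair, or 1.32 ± 0.50 log2. Riok1, a kinase of small-subunit maturation, had 125 and 108 TPM against 21.1 and 17.8 TPM, or -2.52 ± 0.62 log2. Eif6, which keeps immature large subunits from joining, had 221 and 549 TPM against 185 and 229 TPM. Utp18 read 35.4 and 77.97 TPM (non-UVB) and 0.138 and 0.694 TPM (UVB), while Ddx52 was listed at 0 in the non-UVB pair and reached 42.01 and 70.1 TPM with UVB. Wdr3 read 0.026 and 0.128 TPM (non-UVB) and 12.9 and 13.9 TPM (UVB). None passed the test, and 12 of the 84 were higher and 23 lower in both libraries numbered 2, beside 22.5% and 18.5% of all genes. RNA polymerase I genes had higher means for 6 of 9, beside 61.0% of all genes, and a median of 0.44. Polr1d had 153 and 214 TPM against 132 and 269 TPM, and Znrd1 had 261 and 219 TPM against 146 and 82.0 TPM. Omitting non-UVB replicate 1 made that median -0.47, and omitting UVB replicate 1 or UVB replicate 2 made it -0.48 or -0.15. It was -0.53 with 1 TPM required in all 4 libraries.

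Genes that control ribosomal protein synthesis had higher means for 10 of 16, beside 61.0% of all genes. Their median was 0.16, which median scaling made -0.35. With 1 library left out it lay between 0.02 (non-UVB replicate 1) and 0.64 (UVB replicate 2). The S6 kinase genes differed in opposite ways. Rps6kb1 measured 105 and 59.2 TPM in the non-UVB pair and 22.1 and 1.45 TPM in the UVB pair, or -3.41 ± 1.44 log2. Rps6kb2 was listed at 0 and at 58.4 TPM against 104 and 100.2 TPM, or 3.74 ± 2.24 log2. In both genes the groups stood clear of each other, and the adjusted p was 0.580 and 0.827 by limma. Of the 16 genes, 2 were higher and 1 lower with UVB without overlap, beside 23.2% and 9.71% of all genes. Myc, which drives ribosome production, had 67.8 and 117 TPM against 124 and 68.0 TPM, and Rheb, the activator of mTOR, had 136 and 245 TPM against 186 and 329 TPM. Larp1 itself had 7.92 and 13.6 TPM against 21.03 and 0.539 TPM, with no order between the groups. Gabpa, an ETS factor, read 0.023 and 0.1004 TPM (non-UVB) and 11.4 and 21.6 TPM (UVB). Of 14 genes of ribosome stalling and ribotoxic stress that were tested, 7 had higher and 7 lower means, beside 61.0% and 39.0% of all genes. Edf1, a sensor of collided ribosomes, had 461 and 568 TPM against 558 and 467 TPM, Atf4 had 191 and 233 TPM against 132 and 170 TPM, and Mapk14, the p38 kinase, read 0.006 and 0.603 TPM (non-UVB) and 13.8 and 30.9 TPM (UVB). No gene of either list passed the test. Among the mitochondrial ribosomal protein genes, 61 of 78 tested had higher means with UVB, beside 61.0% of all genes, and the median was 1.47 log2. The cytosolic family had 55 of 84 and 0.16. Of the 78, 9 were higher and 20 lower in both libraries numbered 2, beside 22.5% and 18.5% of all genes. The mitochondrial median was 0.20 log2 with 1 TPM required in all 4 libraries, where the cytosolic one was 0.16. Omitting non-UVB replicate 1 made the mitochondrial median 0.66, and omitting non-UVB replicate 2 made it 0.71. The most abundant of them, Mrpl33, had 226 and 927 TPM against 441 and 719 TPM, higher in both libraries numbered 2, while Mrpl38 was listed at 0 and at 0.201 TPM against 90.3 and 66.9 TPM.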

How the data were processed

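RNA from 4 libraries was measured. The labels' protocols name a SMARTer ultra-low input kit and single-end reads of 100 bp. HISAT2 and StringTie are listed in the submitters' processing notes beside GRCm38 (mm10), without versions or roles. The authors deposited 1 table per library with TPM, FPKM and coverage for each gene, per the file headers. The deposited TPM and FPKM are scaled for gene length and library, and the deposited coverage, a signal, counts read depth along the gene and is not scaled to the library. The highest coverage to FPKM ratio, among genes of at least 10 FPKM, gives depths near 34.1 M and 24.7 M reads for non-UVB replicates 1 and 2, and near 42.0 M and 23.8 M for UVB replicates 1 and 2. No counts are in the tables, so no counting interval is given.

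Rows of a gene ID were summed. The 10286 genes that reached 1 TPM in 2 or more libraries were compared as log2(TPM + 1), which understates the change of low genes. The test came from limma (version 3.58.1, run under R 4.3.3); its model held the group alone, with an intensity trend and Benjamini-Hochberg adjustment at 0.05; it was tried on simulated data. The members and lists were chosen with earlier results of these data known, and medians and counts of lists are descriptions without tests. Named genes were the 10 most abundant, up to 5 per direction with the smallest p, genes crossing from under 1 to over 50 TPM, paralogues and genes of fixed roles. In related lists the rule took the 2 most abundant and up to 2 per direction, of which part is shown. Other genes named, among them Rpl22, Rpl36a, Rps27, Rps4x and Rpl7a, were chosen after their values were seen. Of 289 symbols listed, 4 were not matched. Gene types, lengths and overlaps came from GENCODE M21, in which all 88 genes had the same coordinates. Other pseudocounts, filters, units, scalings, a replicate block and the omission of each library were tried. Some genes of the family and of the lists are counted in the totals but are not reported here by name.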

Additional observations from a re-analysis of the deposited data

How the results depend on the processing

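No gene of the family, and no gene at all, passed limma at an adjusted p of 0.05 in any of the 17 settings tried. The median UVB difference, 0.16 log2, was -0.48 after median scaling, with 15 of 84 means higher in place of 55. Relative to all genes the median was -0.10, but 0.12 without a filter, 0.0688 with 1 TPM required in all 4 libraries and 0.29 after quantile normalization. With each library left out in turn, the median lay between -0.28 and 0.55, the median relative to all genes between -0.47 and 0.30, the count of higher means between 19 and 74, and the ratio of ribosomal protein shares between 0.84 and 1.28. These fits borrow the spread of the group that keeps 2 libraries. In settings chosen after seeing the data, median scaling moved the UVB groups without overlap from 6 higher and 4 lower to 0 higher and 16 lower, beside 15.5% and 19.8% of all genes there. The cause of these shifts was not tested. With a replicate block 0 genes passed. The median of 0.16 was the same there by construction, since a block cannot change a group difference in a balanced layout. Deviations from the group means of same-numbered libraries had a correlation of 0.165, and with 2 pairs the libraries share only a number. Depth is known only through coverage, so low TPM values carry no interval.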
